A study of Mus musculus with 27 samples.

Results

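Hepatic stellate cells (HSCs) collected at the peak of a chronic liver injury were compared with HSCs collected 3 days after a single injury. The aim was to show how the transcriptome of cells in an established fibrosis differed from that of cells after a first insult. The comparison took in 8 of the 27 bulk RNA libraries of the series and every gene of its count table, 53379 in all, of which 18758 had enough counts to be tested. Both groups came from male Balb/c mice, and in both the liver was injured with carbon tetrachloride (CCl4), a hepatocyte toxin injected into the peritoneum in mineral oil at 0.5 µL per gram of body weight. The acute 72 h group (n = 4) had received 1 injection at an age of 10 to 12 weeks and was collected 72 h later. Mice of the chronic 24 h group (n = 4) had entered the protocol at 8 to 10 weeks of age, had been given 8 injections, spread over 4 weeks, and were collected 24 h after the last of them. The number of injections and the time since the last injection therefore differed together, and their shares in any difference cannot be told apart. Untreated healthy mice of 10 to 12 weeks (n = 4), HSCs taken 24 h after a single injection (n = 3) and HSCs taken 72 h after the chronic course (n = 4) served as points of reference. In all groups the cells were sorted on the fluorescence that stored retinoid gives under ultraviolet light and were lysed without culture, so that stellate cells without retinoid would have been missed. The methods of the study call the repeats biological and each a separate experiment, the labels only number them, and p-values measure the spread between these libraries.

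HSCs lie between hepatocytes and sinusoidal endothelium and, while the liver is intact, hold most of its vitamin A as droplets of retinyl ester. After injury they enter the cell cycle, lose the genes of the quiescent state, and make fibrillar collagens, matrix glycoproteins, matrix-cleaving enzymes and a contractile actin cytoskeleton. Genes of the cell cycle are switched in blocks. Replication genes are under E2F factors in late G1 and S phase, and mitotic genes are under B-MYB and FOXM1 in G2 and M phase.

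Total counts lay between 11.2 M and 12.6 M in the acute 72 h libraries. In the chronic 24 h group they were 6.95 M and 7.58 M in replicates 1 and 2. Replicates 3 and 4 of that group held 12.2 M and 13 M, and several genes below followed this split. In both groups the variance between libraries was smallest within replicates 1 and 2 and within replicates 3 and 4. Some lists below, such as the mitosis genes, split by the same pairs in acute 72 h, where depth was even. Depth and replicate pair therefore cannot be told apart in chronic 24 h. The 10 stellate cell markers summed to 13164 to 16950 CPM, the count of a gene divided by the library total after TMM scaling, in acute 72 h and to 13398 to 16165 CPM in chronic 24 h libraries, and none of them was at 0. Of these markers Pdgfrb, the receptor of platelet-derived growth factor, was higher in chronic 24 h, and Lhx2, a transcription factor of quiescent stellate cells, and Colec11, a collectin, were lower. Macrophage markers differed more. Their 15 genes summed to 404 to 724 CPM in acute 72 h and to 3768, 5125, 898 and 1686 CPM in chronic 24 h replicates 1 to 4, and 12 of the 15 were called higher in chronic 24 h, by the rule given below, which called 3.97% of all genes higher. Hepatocyte markers overlapped between the groups, with sums of 1751 to 4925 CPM in acute 72 h and 1031 to 4509 CPM in chronic 24 h. In bulk RNA a smaller share of cells and less RNA per cell cannot be told apart.

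A gene was called at an adjusted p below 0.05 in the quasi-likelihood test of edgeR together with a change of more than 2-fold. By this rule 745 genes were higher in chronic 24 h than in acute 72 h (3.97% of those tested) and 727 were lower (3.88%), 1472 in all (7.85%). The 4 chronic libraries lay entirely above the 4 acute ones in 595 of the genes called higher and entirely below them in 651 of those called lower. Over all genes tested such separation was found upwards in 7.91% and downwards in 8.44%. Among the called genes 698 of those higher and 601 of those lower were protein-coding. The median log2 fold change over all genes tested was -0.02, which serves as the reference for the lists below. Counts of list members are likewise to be read against the 3.97% and 3.88% of all genes.

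**Figure D1:**
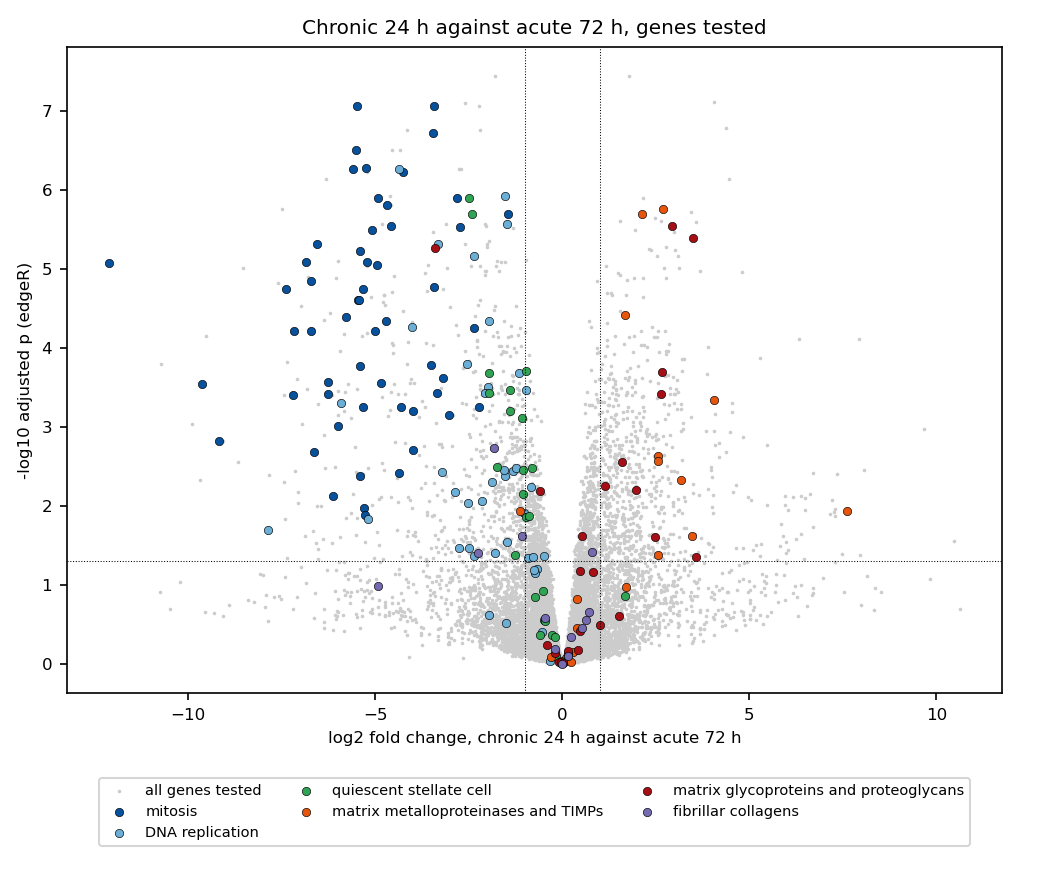
Log2 fold change of each tested gene in chronic 24 h against acute 72 h (x axis) and -log10 of its adjusted p in edgeR (y axis), with dotted lines at 2-fold and at 0.05 and with 6 gene lists in colour. Mitotic genes fill the left side at log2 values from -12.11 to -1.44, matrix metalloproteinases and glycoproteins lie mainly to the right, and most fibrillar collagens lie near 0; the fitted values of genes with 3 counts or fewer in every library of a group depend on the prior count.

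The genes of mitosis showed the widest gap. All 55 members of the mitosis list, which holds cyclins, kinases, kinesins, kinetochore proteins and condensins, were called lower in chronic 24 h, against a background of 3.88%, and in all 55 every chronic library lay below every acute one. Their median log2 fold change was -5.26, or -5.08 with 6 members set to the bound that 3 counts per library allow. Mki67, which encodes the proliferation antigen Ki-67 that coats mitotic chromosomes (chr7:135689784-135716361 on GRCm38, minus strand), measured 159, 129, 178 and 206 CPM in acute 72 h and 12.1, 10.6, 1.84 and 1.92 CPM in chronic 24 h. The groups did not overlap, and the chronic libraries of lower depth were the higher ones. The log2 fold change of Mki67 was -4.70 (SE 0.67, edgeR adjusted p = 4.59e-05). Top2a, the topoisomerase that disentangles sister chromatids, measured 26.1, 32.6, 47.5 and 59.4 CPM in acute 72 h and 1.65, 1.51, 0.526 and 1.28 CPM in chronic 24 h. No chronic library reached the lowest acute one, and the log2 fold change was -5.08 (SE 0.58, edgeR adjusted p = 3.18e-06). Prc1, which bundles the microtubules of the central spindle, stood at 42.1, 48.2, 122 and 113 CPM in acute 72 h and at 2.1, 1.37, 1.4 and 2.32 CPM in chronic 24 h, a 44.8-fold difference (log2 fold change -5.49, SE 0.47, edgeR adjusted p = 8.64e-08).

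Ckap2l and Tpx2, both needed to build the spindle, gave log2 fold changes of -5.50 (SE 0.52) and -5.23 (SE 0.51). Racgap1, a regulator of cytokinesis, gave -4.67 (SE 0.50), and Cenpa, the histone that marks centromeres, gave -3.44 (SE 0.31). Cdk1, the kinase that drives entry into mitosis, changed less, from 38.7, 44.2, 42 and 52.8 CPM in acute 72 h to 8.24, 6.45, 7.19 and 4.88 CPM in chronic 24 h, a 6.65-fold difference (edgeR adjusted p = 2.95e-06). Every chronic library again lay below the acute ones. The cyclin gene Ccnb2 was at 0 throughout chronic 24 h and at 37 to 63.4 CPM in acute 72 h. Taken as it stands, this makes it at least 153-fold lower, with 3 counts per library as the floor. Aldoa, of the glycolysis list, was likewise at 0 throughout acute 24 h. Whether the zeros of Ccnb2 arose in the quantification was not tested, so the bound holds only if they are real. Outside the list, Pclaf, a partner of the replication clamp PCNA, and Stmn1, which destabilises microtubules, were lower at log2 fold changes of -5.22 (SE 0.52) and -4.58 (SE 0.49). Gm11223 also stood among the 8 genes lowest in chronic 24 h, at -4.54 (SE 0.43). It is annotated as a processed pseudogene and its counts may include reads of its parent gene.

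DNA replication genes were lower as well, though by less. Of the 41 members tested, 29 were called lower (70.7%, against 3.88% of all genes), none was called higher, and the median was -1.81. Mcm5, a subunit of the helicase that opens the replication fork, measured 31.6, 39.7, 23.2 and 22.2 CPM in acute 72 h and 5.25, 10.2, 5.7 and 8.32 CPM in chronic 24 h. The groups did not overlap and the log2 fold change was -1.99 (SE 0.34, edgeR adjusted p = 0.000312). Mcm4 and Mcm7, subunits of the same helicase, differed by -1.47 (SE 0.17) and -1.53 (SE 0.16). With only the libraries of higher depth, which leaves chronic replicates 3 and 4, 15 members of the replication list were still called lower. Genes of the G1 decision showed no such block. Of 22 G1 cyclins, their kinases and inhibitors, 3 were called lower (13.6%, against 3.88% of all genes), none was called higher and the median was -0.09. The genes called lower were the inhibitors Cdkn2c at -1.63 and Cdkn1a at -2.27 and the pocket protein gene Rbl1 at -1.42. Cdkn1a, which encodes p21, overlapped between the groups with acute replicate 3 at 2.76 CPM while the other acute libraries stood at 23.7 to 43.7 CPM. The Cdkn1a call (edgeR adjusted p = 0.0446) was kept in 8 of 20 alternative settings and was lost on leaving out any single library other than acute replicate 3, and that of Rbl1 was lost in the libraries of higher depth alone and in the test against a 2-fold minimum. The D-type cyclin Ccnd1 differed by -0.63 (95% interval -1.17 to -0.08, edgeR adjusted p = 0.129) and was not called.

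Promoter sequence was read for the cell cycle genes because the members moved together. RefSeq windows on GRCm38.p6, 250 bases before to 50 after each transcription start, were at hand for 11687 of the tested genes, and both strands were searched. A cell cycle genes homology region (CHR), written TTTGAA, was present in 31 of 44 mitosis genes with a window (70.5%), 28.6% of all genes called lower, 15.5% of those called higher and 14.8% of all genes tested. Without the members of both cell cycle lists the share among the genes called lower was 25.4%. A CCAAT box was found in 72.7% of the mitosis genes, 61.8% of the replication genes and 42.2% of all genes. In lists outside the cell cycle its share ran from 0% (acute phase and metallothionein genes) to 100% (cholesterol synthesis genes). The 100 bases before the start are shown for 6 mitosis genes in which a CHR lay close to the start, with CHR and CCAAT matches on either strand in capitals. They lie at chr2:129297213-129297312 (Ckap2l, minus strand), chr10:69352913-69353012 (Cdk1, minus), chr11:99024190-99024289 (Top2a, minus), chr4:118437344-118437443 (Cdc20, minus), chr19:37376282-37376381 (Kif11, plus) and chr7:135716380-135716479 (Mki67, minus).
Ckap2l: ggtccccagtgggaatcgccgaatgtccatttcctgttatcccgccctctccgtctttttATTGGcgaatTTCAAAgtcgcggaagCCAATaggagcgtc
Cdk1: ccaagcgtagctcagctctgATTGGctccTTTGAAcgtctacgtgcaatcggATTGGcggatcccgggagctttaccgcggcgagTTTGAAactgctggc
Top2a: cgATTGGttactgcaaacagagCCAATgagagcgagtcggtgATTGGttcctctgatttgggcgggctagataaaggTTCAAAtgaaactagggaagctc
Cdc20: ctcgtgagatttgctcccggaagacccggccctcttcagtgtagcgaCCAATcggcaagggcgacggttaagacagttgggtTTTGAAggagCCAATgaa
Kif11: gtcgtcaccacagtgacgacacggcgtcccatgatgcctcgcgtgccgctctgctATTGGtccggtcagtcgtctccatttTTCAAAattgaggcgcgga
Mki67: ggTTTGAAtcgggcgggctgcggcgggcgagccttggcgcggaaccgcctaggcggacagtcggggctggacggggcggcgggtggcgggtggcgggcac

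In Ckap2l, Cdk1, Top2a, Cdc20 and Kif11 a CHR began between 15 and 30 bases before the start and a CCAAT box lay further upstream, whereas the match in Mki67 began 98 bases before the start and stood alone. Cdc20, the activator of the anaphase-promoting complex, and Kif11, the kinesin that separates the spindle poles, were lower in chronic 24 h at log2 fold changes of -5.40 (SE 0.65) and -5.32 (SE 0.71). The replication genes differed in their shares of CHR and E2F matches. An E2F motif, searched as TTTCCCGC, TTTCGCGC, TTTGCCGC and TTTGGCGC, was present in 14 of 34 replication genes (41.2%) against 4.42% of all genes and 3 of 44 mitosis genes, while a CHR was present in 11.8% of the replication genes. Examples are Mcm6, a further helicase subunit (chr1:128359706-128359805, minus strand), and Rfc3, a subunit of the clamp loader (chr5:151651209-151651308, minus strand), with the E2F match in capitals.
Mcm6: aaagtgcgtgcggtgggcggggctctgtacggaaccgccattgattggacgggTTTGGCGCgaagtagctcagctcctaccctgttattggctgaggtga
Rfc3: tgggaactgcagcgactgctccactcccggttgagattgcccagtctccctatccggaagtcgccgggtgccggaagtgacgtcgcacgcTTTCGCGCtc

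Both were called lower in chronic 24 h, with log2 fold changes of -2.35 (SE 0.29) for Mcm6 and -1.03 (SE 0.27) for Rfc3. A match is a run of letters in a window and was not tested as a binding site.

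**Figure D2:**
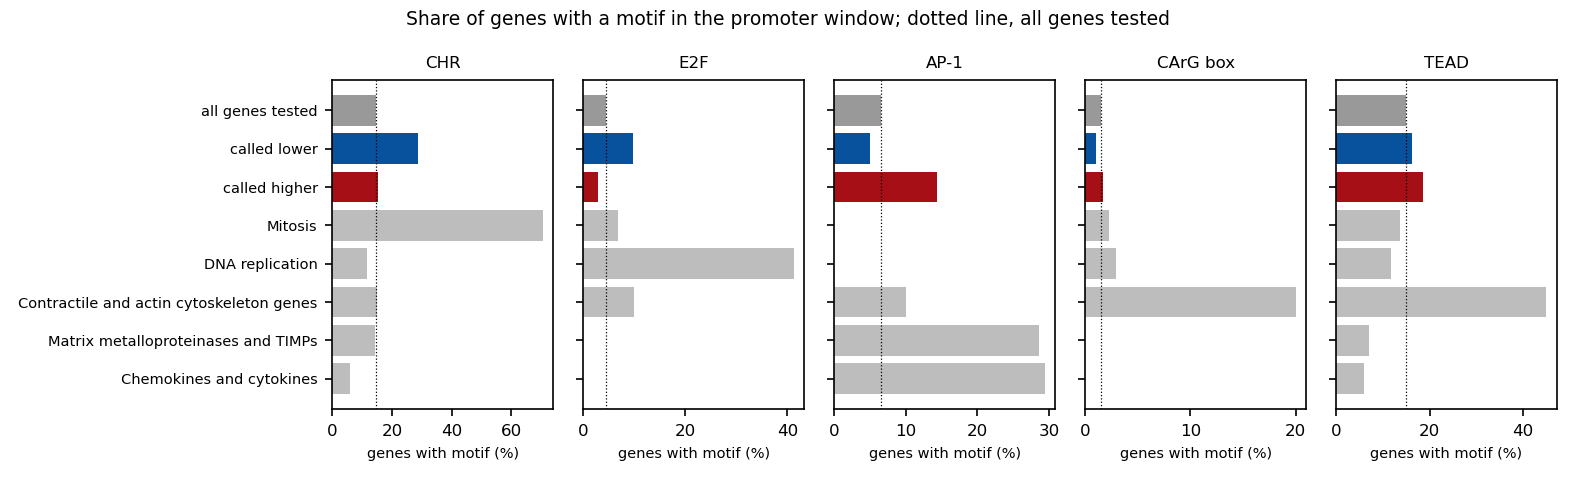
Share of genes (%) with a CHR, E2F, AP-1, CArG or TEAD motif in the 300-base promoter window, for all genes tested (dotted line), the genes called lower or higher in chronic 24 h, and 5 lists. The CHR bar is longest for mitosis genes at 70.5%, the E2F bar for replication genes at 41.2%, and the AP-1 bar is 14.4% for genes called higher against 6.61% for all genes.

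Set beside the other groups, mitotic genes were highest in the acute 72 h libraries. The summed level of the mitosis list was 1553, 1477, 2759 and 2857 CPM in acute 72 h and 143, 148, 115 and 112 CPM in chronic 24 h. Its mean was 256 CPM in healthy and 147 CPM in acute 24 h HSCs and 253 CPM 72 h after the chronic course. Against healthy HSCs, 54 of the 55 genes were called higher in acute 72 h (8.23% of all genes were) and 16 were called lower in chronic 24 h (8.11% of all genes were). At matched times the list was lower by 54 genes in chronic 72 h against acute 72 h (4.01% of all genes) and by 2 genes in chronic 24 h against acute 24 h (3.05%). These comparisons share libraries with one another. For Top2a, the chronic-against-acute change at 24 h exceeded that at 72 h by 5.18 on the log2 scale (SE 0.85, edgeR adjusted p = 0.00037 for the difference).

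**Figure D3:**
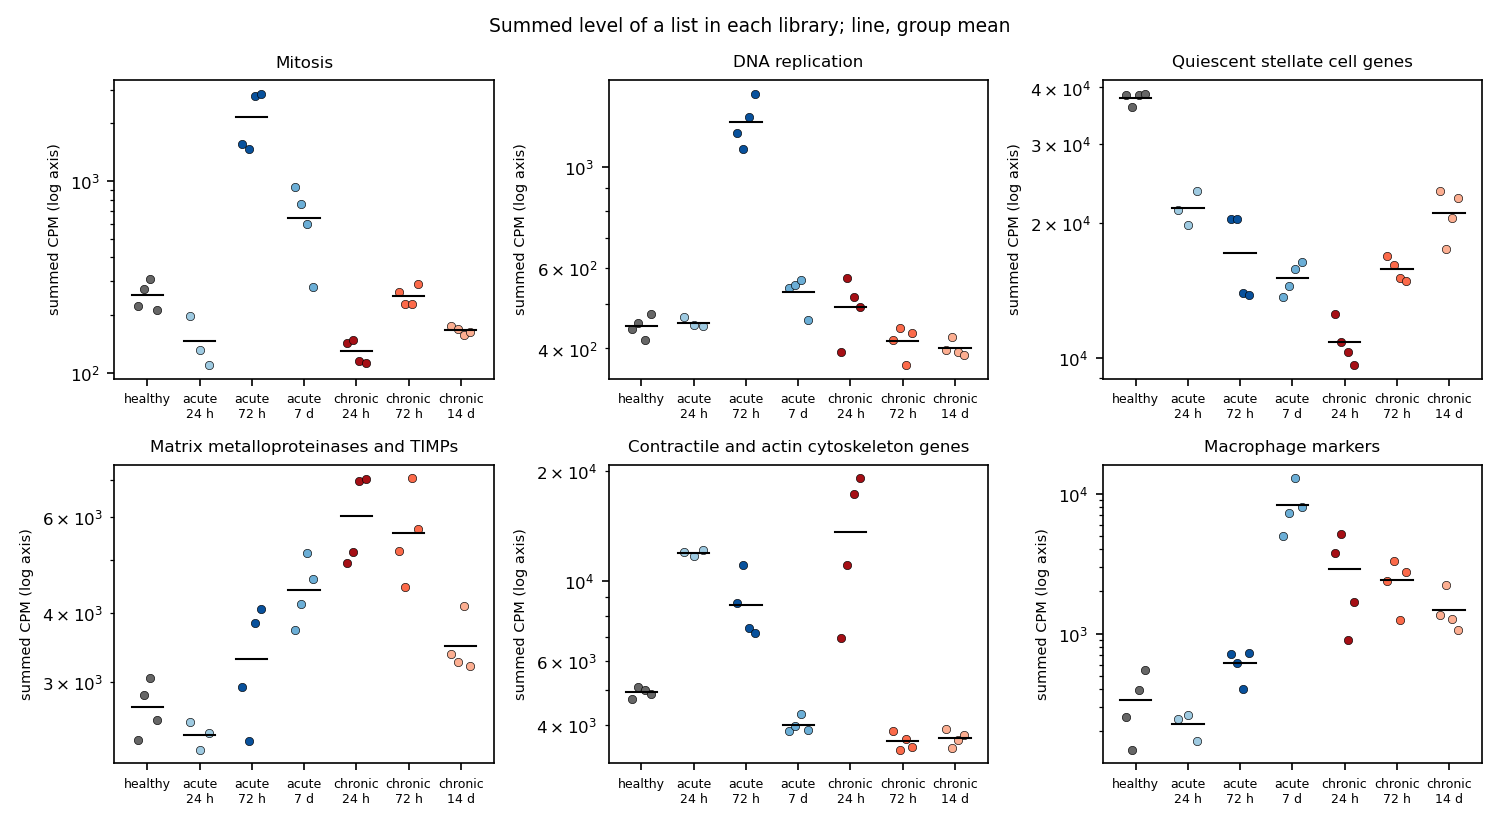
Summed CPM of 6 lists (log axes) in each of the 27 libraries, by group, with the group mean as a line. Mitosis and DNA replication are highest in acute 72 h, quiescence genes are lowest in chronic 24 h, and the contractile and macrophage sums of the 4 chronic 24 h libraries are spread widely.

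Genes of the quiescent state were lower in chronic 24 h. Of 26 such genes 11 were called lower (42.3%, against 3.88% of all genes), none was called higher and the median was -0.92. Ntm, a neuronal adhesion molecule used as a marker of quiescent HSCs, measured 51.6, 37.1, 27.1 and 24.2 CPM in acute 72 h and 5.4, 6.59, 8.33 and 5.76 CPM in chronic 24 h, against a mean of 157 CPM in healthy HSCs. All chronic libraries lay below all acute ones (log2 fold change -2.42, SE 0.27, edgeR adjusted p = 2.01e-06). Egfem1, a protein with EGF-like domains, fell from between 16.1 and 25.5 CPM in acute 72 h to between 2.7 and 4.8 CPM in chronic 24 h (log2 fold change -2.50, SE 0.26). Pcsk6, a proprotein convertase, differed by -1.95 (SE 0.32) and Lhx2 by -1.40 (SE 0.26), both without overlap. The sum over the list was 13783 to 20394 CPM in acute 72 h and 9634 to 12507 CPM in chronic 24 h, and healthy libraries held 36195 to 38766 CPM, so that both injured groups lay below the healthy one. Against healthy HSCs 18 of the 26 genes were called lower in chronic 24 h (8.11% of all genes) and 14 in acute 72 h (4.33%), with the healthy libraries shared by both comparisons. Ngfr, the p75 neurotrophin receptor, was lower by -1.26 (SE 0.40, edgeR adjusted p = 0.0424), a call kept in 10 of 20 alternative settings. Without acute replicate 1 the count of quiescence genes called lower was 7.

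Retinoid and lipid droplet genes gave few calls, in cells that were sorted on retinoid in both groups. Storage itself was not measured. Of 19 retinoid and lipid droplet genes tested, the only call was Lpl, the lipase that releases fatty acids from lipoproteins (5.26%, against 3.97% of all genes called higher). Lpl was higher in chronic 24 h, at 2069 ± 301 CPM against 957 ± 178 CPM (SD, n = 4 each). Lrat, the enzyme that esterifies retinol for storage, stood at 1497 to 2159 CPM in acute 72 h and at 974 to 1284 CPM in chronic 24 h. These ranges did not overlap, but the log2 fold change of -0.73 (95% interval -1.37 to -0.08, edgeR adjusted p = 0.143) was not called. Des, the intermediate filament of HSCs, overlapped between the groups and differed by 0.11 (95% interval -0.24 to 0.46).

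**Figure D4:**
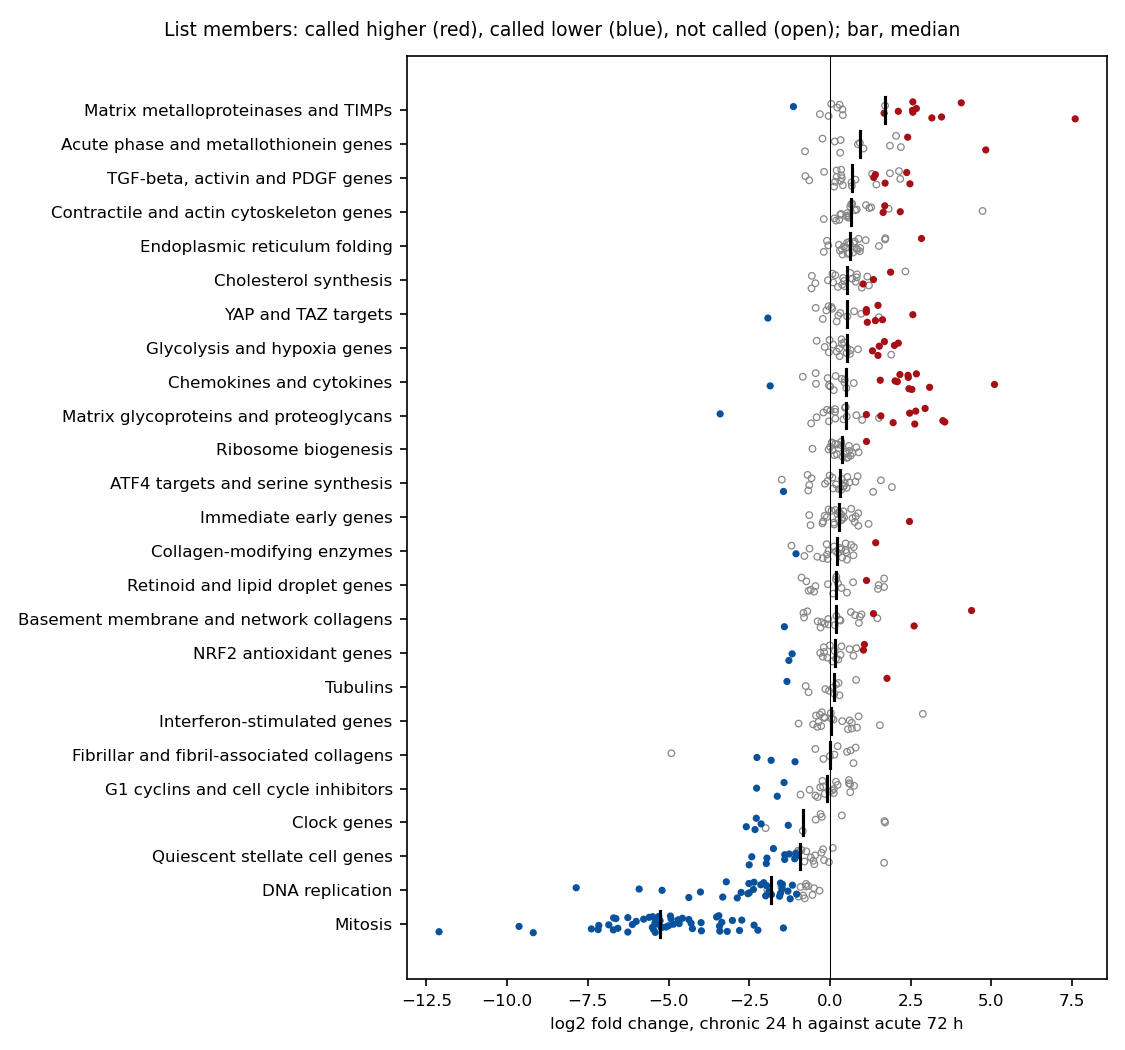
Log2 fold change in chronic 24 h against acute 72 h (x axis) of each tested member of 25 lists (rows, sorted by median), with members called higher in red, called lower in blue, not called as open circles, and the list median as a bar. The 55 mitosis genes are all called lower, the matrix metalloproteinases and TIMPs have the highest median at 1.71, and the fibrillar collagens centre on 0.

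The fibrillar collagens did not follow the other matrix genes. Of 13 fibrillar and fibril-associated collagens tested, none was called higher and 3 were called lower (23.1%, against 3.88% of all genes). The median log2 fold change was -0.00. Col1a1, which encodes the main chain of type I collagen, measured 2346, 2264, 5094 and 5951 CPM in acute 72 h and 3987, 5779, 6302 and 6524 CPM in chronic 24 h. The groups overlapped, with acute replicates 3 and 4 inside the chronic range, and the log2 fold change was 0.53 (95% interval -0.17 to 1.23, edgeR adjusted p = 0.357). Both groups stood far above the healthy mean of 230 CPM. Col3a1, the type III chain, stood at 7283 to 18778 CPM in acute 72 h and at 8335 to 11153 CPM in chronic 24 h, with a log2 fold change of -0.45 (95% interval -0.96 to 0.05, edgeR adjusted p = 0.26). Col11a1 at -2.26 (SE 0.72), Col24a1 at -1.82 (SE 0.37) and Col14a1 at -1.08 (SE 0.31) were called lower, and with only the libraries of higher depth these calls were lost. Lox, which crosslinks collagen, had a log2 fold change of 0.73 (95% interval -0.13 to 1.60, edgeR adjusted p = 0.29). Among 24 collagen-modifying enzymes Loxl1, an elastin crosslinker, was the only one higher (1.42, SE 0.24). Pcolce, an enhancer of procollagen cleavage, was the only one lower (-1.05, SE 0.21). Each direction held 4.17% of these enzymes, near the 3.97% and 3.88% of all genes.

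Among 23 network and basement membrane components 3 were higher (13%) and 1 was lower (4.35%), against 3.97% and 3.88% of all genes. Col15a1, a collagen of the basement membrane zone (chr4:47208161-47313167 on GRCm38, plus strand), measured 7, 3.55, 7.4 and 8.67 CPM in acute 72 h and 99.7, 151, 152 and 157 CPM in chronic 24 h. That gap was far wider than the spread of either group, a 20.9-fold difference (log2 fold change 4.39, SE 0.39, edgeR adjusted p = 1.66e-07). Of the laminin genes Lamb3 was higher at a log2 fold change of 1.35 (SE 0.22) and Lama1 was lower at -1.41 (SE 0.33), though Lamb3 stayed below 10 CPM in every library of both groups.

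Matrix glycoproteins rose in larger number. Of 26 glycoproteins and proteoglycans tested, 9 were higher (34.6%, against 3.97% of all genes), 1 was lower and the median was 0.50. Tnc, tenascin C, a glycoprotein of injured and remodelling tissue, stood at 116, 137, 199 and 209 CPM in acute 72 h and at 1282, 1693, 2453 and 2079 CPM in chronic 24 h. The groups were far apart, with a log2 fold change of 3.50 (SE 0.41, edgeR adjusted p = 4.11e-06). Thbs1, thrombospondin 1, which can release TGF-beta from its latent complex, measured 494, 899, 818 and 744 CPM in acute 72 h and 4111, 4962, 6723 and 6968 CPM in chronic 24 h. Here too no libraries overlapped (log2 fold change 2.95, SE 0.33, edgeR adjusted p = 2.83e-06). Spp1, osteopontin, differed by 2.66 (SE 0.43) and Fbln2, fibulin 2, by 1.96 (SE 0.47). A related gene moved the opposite way. Fbln5, fibulin 5, which assembles elastic fibres, stood at 442, 383, 800 and 831 CPM in acute 72 h and at 87.1, 69.7, 37.2 and 38.9 CPM in chronic 24 h, a 10.6-fold difference downwards (edgeR adjusted p = 5.39e-06). The mean of Fbln5 was 579 CPM in healthy, 32.7 CPM in acute 24 h and 851 CPM in chronic 72 h libraries, so that it was low in both groups collected at 24 h.

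**Figure D5:**
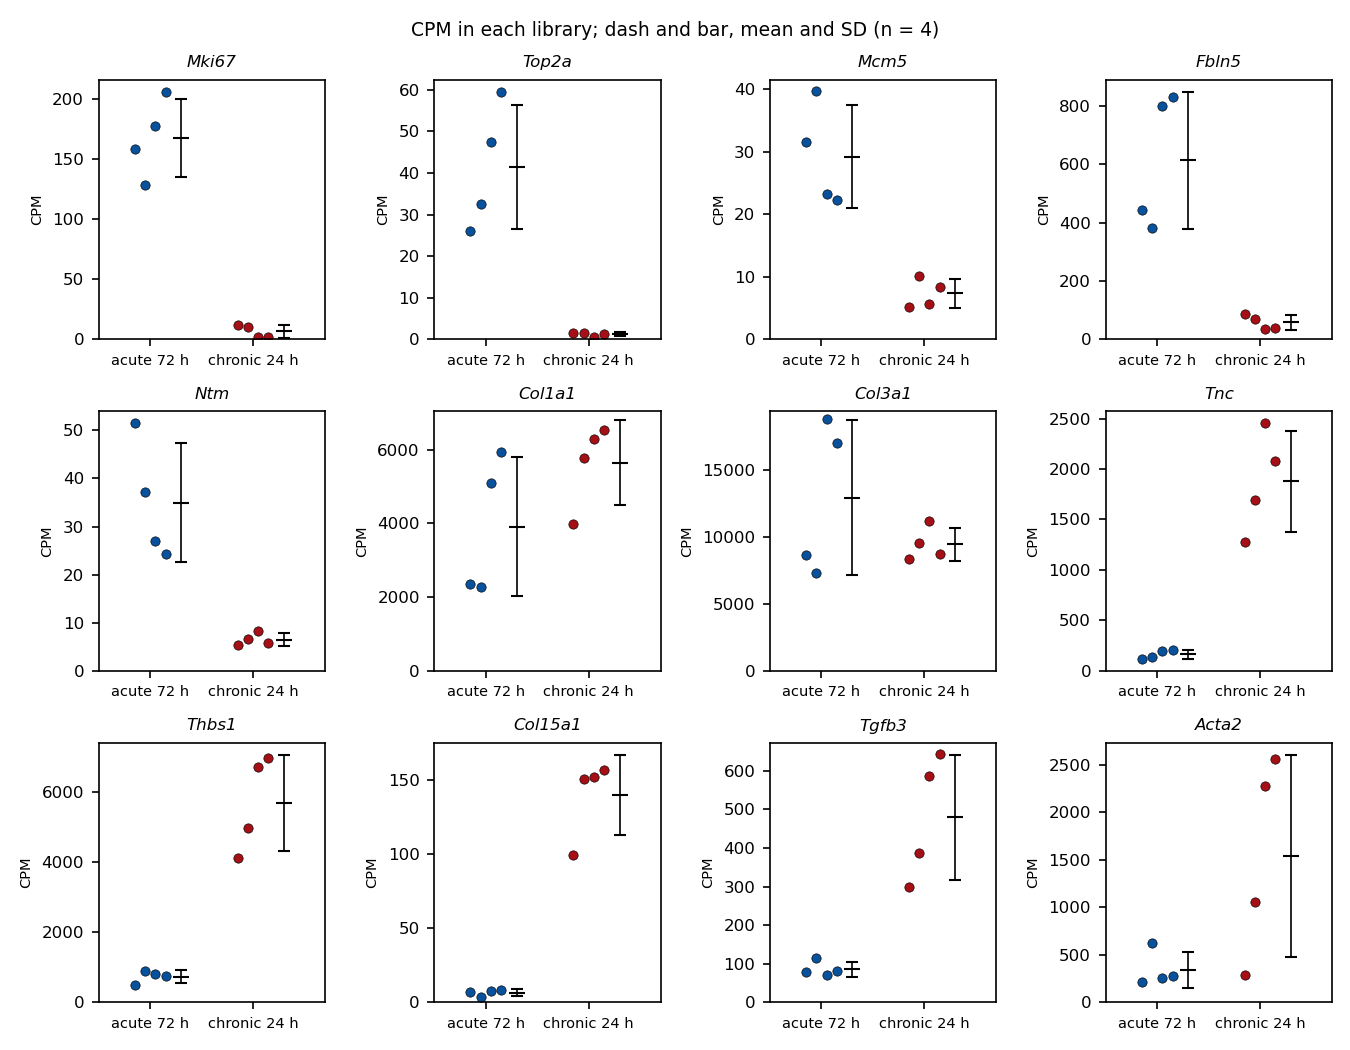
CPM of 12 genes in each acute 72 h and chronic 24 h library (points, linear axes from 0), with the mean and SD of 4 libraries beside them. Mki67, Top2a, Mcm5, Fbln5 and Ntm are separated downwards and Tnc, Thbs1, Col15a1 and Tgfb3 upwards, while Col1a1, Col3a1 and Acta2 overlap.

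Enzymes that cleave matrix had the highest median, 1.71, of the 25 lists that are not cell type markers. Of 19 matrix metalloproteinases (MMPs) and their inhibitors tested, 10 were higher (52.6%, against 3.97% of all genes) and 1, Mmp15, was lower. Mmp2, the 72 kDa gelatinase of mesenchymal cells, measured 166, 136, 235 and 248 CPM in acute 72 h and 930, 936, 842 and 711 CPM in chronic 24 h. The separation was complete (log2 fold change 2.12, SE 0.23, edgeR adjusted p = 2.01e-06). Mmp14, the membrane-bound enzyme that activates the Mmp2 product, rose from between 277 and 612 CPM in acute 72 h to between 1201 and 1692 CPM in chronic 24 h, and Mmp19 rose from between 11.6 and 19 CPM to between 74.4 and 119 CPM. Mmp12, known as the elastase of macrophages, stood at 4.88 to 9.12 CPM in acute 72 h and at 113, 217, 59.1 and 93.2 CPM in chronic 24 h (log2 fold change 4.07, SE 0.71, edgeR adjusted p = 0.000463). Macrophage markers were highest in the same chronic replicates 1 and 2, and their part in the level of Mmp12 was not tested. In the fit with only the libraries of higher depth 6 of the MMP and inhibitor genes were called higher. Timp1, the inhibitor that rises with HSC activation, stood at 1.68, 47.9, 21.2 and 29.3 CPM in acute 72 h and at 172, 128, 152 and 143 CPM in chronic 24 h. The groups were separate, with acute replicate 1 far below the other acute libraries (log2 fold change 2.57, SE 0.82, edgeR adjusted p = 0.0424), and the call was kept in 7 of 20 alternative settings.

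An AP-1 motif, TGANTCA on either strand, stood in the promoter window of 4 of 14 MMP and TIMP genes (28.6%) and 5 of 17 chemokine and cytokine genes (29.4%). It stood in 14.4% of all genes called higher, 5.05% of those called lower and 6.61% of all genes tested. NRF2 antioxidant genes, which had calls in both directions, held it in 5 of 16 (31.2%). AP-1 was not alone in this. A motif of the stress factor ATF4 stood in 5.97% of genes called higher, 2.32% of those called lower and 2.92% of all genes. The stromelysin Mmp3, the collagenase Mmp13 and the related Mmp10 are shown as examples chosen for the AP-1 motif. They were picked by adjusted p from the MMP, matrix glycoprotein, TGF-beta and chemokine lists. Each was called higher, had a single promoter window and held the motif within 100 bases of its start, in capitals here. They are neighbours, at chr9:7445722-7445821, chr9:7272414-7272513 and chr9:7502242-7502341 on the plus strand.
Mmp3: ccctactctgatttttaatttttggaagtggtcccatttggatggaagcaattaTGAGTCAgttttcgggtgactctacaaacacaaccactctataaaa
Mmp13: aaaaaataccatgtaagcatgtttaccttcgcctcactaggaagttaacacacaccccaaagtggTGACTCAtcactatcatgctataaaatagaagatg
Mmp10: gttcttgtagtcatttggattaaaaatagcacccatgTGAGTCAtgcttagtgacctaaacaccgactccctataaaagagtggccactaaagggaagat

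Mmp3 rose from between 6.1 and 12.3 CPM in acute 72 h to between 18.9 and 99 CPM in chronic 24 h (log2 fold change 2.57, SE 0.54), and Mmp13 from between 1.39 and 3.01 CPM to between 3.07 and 24.3 CPM (2.56, SE 0.55). Mmp10 was near 0 in acute 72 h and stood at 0, 4.53, 13.9 and 23.1 CPM in chronic 24 h, at least 41.5-fold higher on average with 3 counts per acute library as the floor, though chronic replicate 1 had no count.

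Contractile genes leaned upwards without many calls. Of 24 actin cytoskeleton and smooth muscle genes 23 had a positive log2 fold change, with a median of 0.64. Of these, 3 (Acta2, Lmod1 and Tes) were called higher, 12.5% against 3.97% of all genes. Acta2, smooth muscle actin and the customary marker of the activated HSC, measured 212, 621, 256 and 275 CPM in acute 72 h and 289, 1055, 2272 and 2563 CPM in chronic 24 h. Chronic replicate 1 lay inside the acute range, and the log2 fold change of 2.18 (SE 0.71, edgeR adjusted p = 0.0455) kept its call in 10 of 20 alternative settings. Lmod1, which nucleates actin filaments in smooth muscle, differed by 1.65 (SE 0.44), and Tes, a focal adhesion protein, was 3.25-fold higher, each with chronic replicate 1 close to or inside the acute range. The list summed to 6962 CPM in chronic replicate 1, 11017 in replicate 2, 17334 in replicate 3 and 19136 in replicate 4, against 7175 to 11064 CPM in acute 72 h. Depth class and replicate pair both ran along this order and cannot be told apart. With only the libraries of higher depth 11 members were called higher, without chronic replicate 1 the number was 6 and without chronic replicate 3 it was 1. In chronic 72 h against acute 72 h 12 of the 24 genes were called lower (4.01% of all genes were), and Acta2 averaged 11.2 CPM there.

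Targets of the mechanosensitive coactivators YAP and TAZ gave 7 calls upwards and 1 downwards among 21 genes, with a median of 0.54. The shares were 33.3% and 4.76%, against 3.97% and 3.88% of all genes. Axl, a receptor tyrosine kinase, was the most precise of them, at 592 ± 50.5 CPM in acute 72 h and 1320 ± 126 CPM in chronic 24 h (SD, n = 4 each; edgeR adjusted p = 9.17e-06). F3, tissue factor, was higher by 1.63 (SE 0.34). Ankrd1, a nuclear ankyrin repeat protein, stood at 8.24, 28.4, 83.8 and 42.7 CPM in chronic 24 h and at 3.28, 14.2, 4.31 and 5.81 CPM in acute 72 h. Its groups overlapped through chronic replicate 1 and acute replicate 2 (log2 fold change 2.57, SE 0.66, edgeR adjusted p = 0.0119). Igfbp3, a carrier of insulin-like growth factors, went the other way, from between 1114 and 3002 CPM in acute 72 h to between 275 and 986 CPM in chronic 24 h (log2 fold change -1.92, SE 0.32). Without chronic replicate 2 the number of targets called higher was 4. The TEAD motif GGAATG was present in 7 of 14 of these genes with a promoter window and in 14.9% of all genes.

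Of 25 TGF-beta, activin and platelet-derived growth factor (PDGF) genes 5 were higher and none was lower, with a median of 0.67. The share higher was 20%, against 3.97% of all genes. Tgfb3 measured 77.5, 114, 70.6 and 81.5 CPM in acute 72 h and 300, 386, 587 and 643 CPM in chronic 24 h. All chronic libraries were above all acute ones (log2 fold change 2.48, SE 0.28, edgeR adjusted p = 2.25e-06). Tgfb2 was higher by 1.41 (SE 0.29) and Inhba, the activin A subunit, by 1.71 (SE 0.30), whereas Tgfb1 was at 154 ± 17 CPM in chronic 24 h and 133 ± 45.1 CPM in acute 72 h (SD, n = 4 each) and was not called (95% interval of the log2 fold change -0.28 to 0.69). On the PDGF side the ligand Pdgfc and the receptor Pdgfrb were higher. Pdgfrb rose from between 763 and 983 CPM to between 1978 and 2342 CPM (log2 fold change 1.36, SE 0.23), while Pdgfra overlapped, with a 95% interval of -0.25 to 0.89.

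Among 25 chemokine and cytokine genes 11 were called higher (44%, against 3.97% of all genes), 1 was called lower and the median was 0.51. The summed level of the list overlapped between the groups, at 6567 to 10705 CPM in acute 72 h and 5882 to 8980 CPM in chronic 24 h. Cx3cl1, a membrane-bound chemokine for monocytes, stood at 85.3 to 117 CPM in acute 72 h and 241 to 339 CPM in chronic 24 h (log2 fold change 1.56, SE 0.22). Il11, a cytokine of activated fibroblasts, measured 3.01, 5.45, 1.95 and 1.94 CPM in acute 72 h and 8.69, 27.7, 12.5 and 22.6 CPM in chronic 24 h. The groups did not overlap (log2 fold change 2.54, SE 0.45, edgeR adjusted p = 0.000427), and the mean in acute 24 h libraries was 131 CPM. Ccl6, made by myeloid cells, differed by 3.09 (SE 0.53) and was highest in chronic replicates 1 and 2. The interferon-induced chemokine Cxcl10 was the only member lower, from between 161 and 227 CPM to between 48.7 and 58.6 CPM. With only the libraries of higher depth 4 of these genes were called higher, and without acute replicate 1, acute replicate 4 or chronic replicate 1 the number was 7.

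Of 13 acute phase and metallothionein genes tested, 2 (C3 and Saa3) were called higher (15.4%, against 3.97% of all genes) and none lower. The list summed to 5391 to 5914 CPM in acute 72 h and 4908 to 6837 CPM in chronic 24 h, with overlap. A complement gene outside that list was among the 8 named for the highest log2 fold changes. C4b, a component of the classical complement pathway, measured 67.1, 46.5, 40.4 and 37.2 CPM in acute 72 h and 833, 636, 804 and 916 CPM in chronic 24 h. No overlap was seen (log2 fold change 4.06, SE 0.33, edgeR adjusted p = 7.73e-08). C4a, a near-identical copy, differed by 4.04 (SE 0.97), and reads of the pair may have been divided between them arbitrarily. With only the libraries of higher depth the call of C4a was lost. C3, the central complement component, rose from between 58.6 and 212 CPM to between 429 and 943 CPM, and Saa3, an acute phase apolipoprotein, from between 0.387 and 2.48 CPM to between 22.7 and 54 CPM. C4b was as high 72 h after the chronic course, with a mean of 995 CPM, and averaged 53.1 CPM in acute 24 h and 69.6 CPM in healthy libraries.

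Markers of immune cells differed by cell type. Beside the 12 macrophage markers, 5 of 6 neutrophil, 3 of 8 dendritic cell, 2 of 11 T and NK cell, 1 of 6 B cell and 1 of 6 Kupffer cell markers tested were called higher, against 3.97% of all genes. Of 6 monocyte markers 2 were higher and Plac8 was lower, and they summed to 244 to 269 CPM in acute 72 h and 81.5 to 259 CPM in chronic 24 h. Cd14, the lipopolysaccharide co-receptor, stood at 36.5 to 72.5 CPM in acute 72 h and at 334, 596, 131 and 214 CPM in chronic 24 h (log2 fold change 2.50, SE 0.49). Chronic replicates 1 and 2 were the highest for Cd14, as for the macrophage sum. With only the libraries of higher depth 1 macrophage marker was called higher, and the number was 7 without acute replicate 3 or without chronic replicate 2. Lymphoid and granulocyte levels were low. The neutrophil markers summed to 6.75 to 10.4 CPM in acute 72 h and 18.6 to 54.9 CPM in chronic 24 h, with Camp at 0 in both groups. T and NK cell markers summed to 8.13 to 12 CPM and 19.2 to 34 CPM. For macrophages 0 of the 15 markers were at 0 in either group. The part of these cells in the levels of the chemokines, of Mmp12 and of complement was not tested.

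Gpnmb, a glycoprotein of macrophages and of stressed mesenchymal cells, split with the macrophage markers, at 556, 933, 86.1 and 100 CPM in chronic 24 h and at 13.9, 15.9, 12.4 and 56.2 CPM in acute 72 h (log2 fold change 4.09, SE 0.82). With only the libraries of higher depth the log2 fold change was 1.94 and the call was lost. Of the other genes at the top of the list, Aoc1, Fndc5 and Fgl2 kept their calls in all 20 alternative settings. Aoc1, a diamine oxidase that degrades histamine and putrescine, measured 3.19, 4.94, 5.77 and 4.88 CPM in acute 72 h and 150, 65.3, 169 and 139 CPM in chronic 24 h, at 4.80 the highest log2 fold change among the genes whose log2 CPM averaged 3 or more and whose groups were separate (SE 0.61, edgeR adjusted p = 1.1e-05). Fndc5, the precursor of irisin, rose from between 2.6 and 5.73 CPM to between 35.3 and 68.4 CPM (log2 fold change 3.58, SE 0.40). Fgl2, a fibrinogen-like protein, rose from between 15.1 and 35.4 CPM to between 178 and 418 CPM (log2 fold change 3.67, SE 0.47). The 4 chronic libraries of Aoc1, Fndc5 and Fgl2 lay above the 4 acute ones.

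Hypoxia and glycolysis genes were higher in part. Of 23 tested, 6 were called higher (26.1%, against 3.97% of all genes), none was called lower, and the median was 0.52. Vegfa, the angiogenic growth factor, measured 30.8, 33.2, 34.9 and 31.2 CPM in acute 72 h and 84.1, 144, 125 and 212 CPM in chronic 24 h. The acute libraries were tightly grouped and all below the chronic ones (log2 fold change 2.12, SE 0.31, edgeR adjusted p = 6.14e-05). The hexokinase Hk2 and the enolase Eno2 were higher by 1.32 (SE 0.21) and 1.69 (SE 0.23). In the fit with only the libraries of higher depth 3 members were called. Folding genes of the endoplasmic reticulum had 24 of 27 positive values and a median of 0.62. The single call among them (3.7%, against 3.97% of all genes) was Hyou1, a chaperone. Hyou1 rose from between 18.9 and 34 CPM to between 109 and 241 CPM (log2 fold change 2.83, SE 0.64, edgeR adjusted p = 0.00444). Among 26 targets of the stress factor ATF4 the only call was Psat1, an enzyme of serine synthesis, at -1.46 (SE 0.30). The share lower was 3.85%, against 3.88% of all genes.

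Both transcriptional programs published by the study drew on libraries of this series, the fibrogenic one on healthy, chronic 24 h and recovered HSCs and the initiatory one on HSCs 24 h after a single injection together with cultured HSCs, which were not analysed here. Their counts are therefore not independent evidence of a direction. Of the 172 fibrogenic program genes tested, 85 were higher in chronic 24 h than in acute 72 h (49.4%, against 3.97% of all genes). Of these genes 1 (Psat1) was lower, and their median was 1.36. Against healthy HSCs, which both comparisons share, 170 of them were called higher in chronic 24 h and 146 in acute 72 h (11.2% and 8.23% of all genes were). The summed level of the program was 25499 to 33164 CPM in acute 72 h and 42680 to 71554 CPM in chronic 24 h. Bmper, which binds bone morphogenetic proteins, measured 30.6 to 36.2 CPM in acute 72 h and 89.2 to 199 CPM in chronic 24 h (log2 fold change 2.16, SE 0.23, edgeR adjusted p = 1.26e-06). Of the 72 genes of the initiatory program, 28 were higher (38.9%), 2 (Psat1 and Cdkn1a) were lower (2.78%) and the median was 1.00. Ch25h, which makes 25-hydroxycholesterol, was higher by 3.08 (SE 0.38), from between 16.9 and 50.4 CPM to between 200 and 414 CPM.

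Setting the chronic course against a single injection at the same time gave other counts. In chronic 24 h against acute 24 h, 2036 genes were higher (10.9%) and 573 lower (3.05%). In chronic 72 h against acute 72 h, 959 were higher (5.11%) and 752 lower (4.01%). The difference of both changes was called upwards in 1212 genes (6.46%) and downwards in 427 (2.28%). The MMP list gave 14 genes higher at 24 h and 3 at 72 h, the macrophage markers 15 and 13, and the contractile genes 5 higher at 24 h and 0 at 72 h. These comparisons share the chronic 24 h and acute 72 h libraries with the one described above.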

How the data were processed

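HSCs from livers of male Balb/c mice were sequenced as 27 bulk RNA libraries, of which 8 entered the comparison. Per the labels and the study's own methods section, the authors aligned single-end reads to GRCm38 with STAR and assembled genes with StringTie, and the deposited values are their raw counts per Ensembl gene, whole numbers without normalization. Tool versions, strand and the step from assembly to counts are not given in the sources used here. GENCODE M21 supplied symbols, positions and gene classes for 53274 of the 53379 gene IDs, and 0 columns were left without a library. An assembler's estimate can give a library an isolated 0, which was seen in 477 tested genes (a count of 0 where the other libraries of the group average at least 20) and in 27 called ones. Genes at 0 throughout a group, such as Ccnb2 and Krt19, escape this rule, and their bounds rest on those zeros being real.

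The analysis ran in edgeR 4.0.16 under R 4.3.3. Genes were filtered with filterByExpr by group, and TMM scaling and a robust quasi-likelihood model with 1 mean per group were applied to all 27 libraries, with 20 residual degrees of freedom. The adjusted p is that of Benjamini and Hochberg over 18758 genes. SE denotes the log2 fold change divided by the root of the F statistic, and intervals are at 95% confidence. Genes with 3 counts or fewer in every library of a group are given as bounds. Averaged over all genes, the variance between libraries was 17.6 to 54.9 times that of counting alone within pairs of replicates. Highly counted genes govern this average, and counting error weighs more in genes of a few CPM. Lists are described by counts and medians without a test of the list.

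The comparison, the lists and the genes were chosen with earlier results of these data known. Named were the 8 highest and 8 lowest called genes whose log2 CPM averaged 3 or more and whose groups did not overlap, the 3 members with the smallest adjusted p per list and direction, 17 genes named by the study or in general use as markers, and members on which a count or a promoter turns, the last chosen after their values were seen. Promoter windows came from RefSeq and a gene counted as holding a motif where any of its windows did. Alternatives were the size factors of DESeq2 1.42.0 in edgeR, library size alone, DESeq2 itself, no filter on low counts, a mean above 1 CPM as the filter, the 2 groups fitted alone, a test against a 2-fold minimum, blocking on the replicate number, depth class as a term, libraries over 9 M counts only, each library left out in turn, an adjusted p below 0.1 and no fold minimum. The omission of called genes with an isolated 0 was added after the data had been seen.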

Additional observations from a re-analysis of the deposited data

Results flagged for a closer look

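In 7 cases 1 library lay apart from the other 3 of its group by more than the 95% critical value of Dixon's test, out of 142 sets of 4 libraries examined, and chance flags about 1 in 20. In chronic 24 h these were Racgap1 in replicate 2 (4.53 CPM, others 1.35 to 1.67), Col15a1 in replicate 1 (99.7 CPM, others 151 to 157), the summed immediate early genes in replicate 4 (49508 CPM, others 52124 to 52610) and the summed B cell markers in replicate 2 (119 CPM, others 46.7 to 56.7). In acute 72 h they were Gpnmb in replicate 4 (56.2 CPM, others 12.4 to 15.9), Acta2 in replicate 2 (621 CPM, others 212 to 275) and the summed hepatocyte markers in replicate 3 (4925 CPM, others 1751 to 2146).

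The change from a single injection to the chronic course was also compared between 24 h and 72 h after the last injection, as a difference of log2 fold changes in the edgeR model, for the 32 genes named as highest, lowest or in general use as markers. It passed in 20 of them, with edgeR adjusted p-values from 1.79e-05 (Mcm5) to 0.0457 (Aoc1). Over all genes tested it was called upwards in 6.46% and downwards in 2.28%. The highest and lowest genes were picked on the chronic 24 h and acute 72 h libraries, which also enter this difference. Their values are therefore not independent of that choice. A positive value means that the log2 change of chronic against acute was higher at 24 h than at 72 h. Among cell cycle genes the difference was 3.84 for Ckap2l, 2.41 for Prc1, 3.55 for Tpx2, 4.54 for Pclaf, 4.56 for Mki67 and 3.75 for Racgap1. It was 3.69 for Stmn1, 3.96 for Gm11223, 5.18 for Top2a, 2.42 for Cdk1 and 4.12 for Mcm5. These genes were all lower in chronic 72 h than in acute 72 h. Among matrix and contractile genes it was 7.63 for Acta2, 3.21 for Col1a1, 2.35 for Col3a1, 4.64 for Lox and 2.56 for Col15a1. Acta2 averaged 234 CPM in acute 24 h, 1545 in chronic 24 h, 341 in acute 72 h and 11.2 in chronic 72 h. The remaining values were 2.51 for Aoc1, 4.57 for Gpnmb, -3.01 for Fgl2 and -3.67 for Cdkn1a, which averaged 140 CPM in acute 24 h and 5.54 CPM in chronic 24 h.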

How the results depend on the processing

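The 745 genes higher and 727 lower changed by more than 1.5 times under 3 settings. A test against a 2-fold minimum called 182 higher and 266 lower, no fold minimum 1137 and 1122, and the libraries of higher depth 455 higher (573 lower). Leaving out 1 library at a time gave 557 (without acute 72 h replicate 3) to 785 higher (without chronic 24 h replicate 3) and 604 to 738 lower. The other counts were 964 and 831 in DESeq2, 579 and 681 with depth class as a term, 547 and 568 with the 2 groups only, 937 and 894 at an adjusted p below 0.1, and 725 and 720 without genes with an isolated 0. With library size alone they were 657 and 856, a share of 43.4% higher against 50.6%, as the median of all genes moved to -0.12.

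Of 112 named calls none changed direction in the alternatives run. The number lost was 55 in the 2-fold test, 35 in the libraries of higher depth, 16 with depth class as a term, 15 with the 2 groups only, 8 without a filter, 3 with library size alone (G6pdx, Hmox1 and Hsd17b7) and 0 in DESeq2. The causes were not tested. With the replicate number as a block, 700 genes were higher and 707 lower, and 5 named calls were lost (Cdkn1a, Acta2, Hsd17b7, Timp1 and Ngfr). Deviations of same-numbered libraries correlated at 0.19, 0.0442, 0.137 and 0.058, and those of different numbers at -0.189 to 0.106. For chronic replicates 1, 3 and 4 the same-numbered acute library correlated best. Chronic replicate 2 correlated slightly better with acute replicate 1 (0.0472). Whether the numbers mark shared batches was not tested, and the main fit did not pair the libraries. The lower depth of chronic replicates 1 and 2 limits low genes there.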

Other observations

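Genes of the circadian clock were lower in part in chronic 24 h. Of 13 tested, 5 were called lower (Dbp, Tef, Hlf, Per2 and Per3) and none higher, with a median of -0.84. The share lower was 38.5%, against 3.88% of all genes. Per3, a repressor of the core clock, stood at 22.2, 11.2, 35.4 and 29.2 CPM in acute 72 h and at 2.1, 2.2, 7.72 and 7.2 CPM in chronic 24 h, a log2 fold change of -2.32 (SE 0.51, edgeR adjusted p = 0.00326). With only the libraries of higher depth no clock gene was called, and the hour of collection is not given in the sources used here.

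Among 24 genes of cholesterol metabolism 3 were higher (12.5%, against 3.97% of all genes) and none was lower, with a median of 0.55. Msmo1, a methylsterol oxidase of cholesterol synthesis, was higher by 1.35 on the log2 scale (SE 0.37, edgeR adjusted p = 0.0187), a call lost without acute replicate 1 or 2 or chronic replicate 3 or 4. NRF2 antioxidant genes went both ways, with G6pdx and Hmox1 higher and Nqo1 and Gsta4 lower among 19. The calls were kept in 11 of 20 alternative settings for Hmox1, which was lost without acute replicate 3 or 4 or chronic replicate 1 or 2, and in 15 for G6pdx, which was lost without chronic replicate 1. Gsta4 was lost without acute replicate 3. Of 28 immediate early genes the only call was Nr4a2, an orphan nuclear receptor (3.57%, against 3.97% of all genes called higher). Nr4a2 rose from 26.6 ± 5.29 to 146 ± 35.2 CPM (SD, n = 4 each, edgeR adjusted p = 7.22e-05), while Klf6 differed by 0.80 (95% interval 0.20 to 1.40, edgeR adjusted p = 0.0758). Ribosome biogenesis gave 1 call (Gnl3) among 25 genes, or 4% against 3.97% of all genes called higher. The median of 22 interferon-stimulated genes was 0.04. Of 12 tubulins Tuba4a was higher and Tubb4a lower, 8.33% each way against 3.97% and 3.88% of all genes.

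Markers of other liver cells differed by cell type. Krt19, a keratin of bile duct cells, had no count in acute 72 h and 1.32 to 2.7 CPM in chronic 24 h, at least 7.72-fold higher with 3 counts per library as the floor. Wt1, a transcription factor of mesothelial cells, measured 18.7 to 26.9 CPM in acute 72 h and 50.8 to 104 CPM in chronic 24 h (log2 fold change 1.69, SE 0.28). Of 13 endothelial markers 1 (Fcgr2b) was higher (7.69%), as was 1 (Marco) of 6 Kupffer cell markers (16.7%). Of 6 monocyte markers 2, Ccr2 among them, were higher (33.3%) and 1 (Plac8) was lower (16.7%). Over all genes 3.97% were called higher and 3.88% lower. The only hepatocyte marker called was Car3, a carbonic anhydrase, or 5% of the 20 tested. Car3 differed by -3.21 (SE 0.76), with 26.1 to 295 CPM in acute 72 h and 8.33 to 20.6 CPM in chronic 24 h.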
